A study of Homo sapiens with 4 samples.

Results

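Lysosomal genes were followed as a set of 50, chosen by symbol, in MDA-MB-231, a cell line from a human breast cancer without hormone receptors or HER2 amplification: 21 hydrolases, 2 luminal proteins that bind lipids, 8 membrane proteins, 16 subunits of the proton pump and 3 transcription factors. All 50 were among the 20263 genes of the deposited count table, and all 50 passed the filter on low counts that left 13744 genes for testing. RNA was sequenced from cells given the vehicle DMSO (2 libraries) or RB-BC (2 libraries), which the study's title calls a derivative of ribociclib, an inhibitor of CDK4 and CDK6. All 4 libraries come from the same unmodified line in serum-containing medium, and the treatment lasted 24 h. The protocol in the labels names the compound Rib_CA, no label gives a dose, and nothing says that the libraries of a group came from separate cultures, so the spread behind each p-value is that of these libraries only and may be technical.

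The lysosome is the acidic compartment in which cells break down proteins, glycans and lipids. A rotary pump, the V-ATPase, moves protons into it: the membrane-embedded V0 sector forms the channel and the cytosolic V1 sector hydrolyses ATP. Soluble hydrolases work in its lumen, heavily glycosylated membrane proteins line it and export the products, and the related transcription factors TFEB, TFE3 and MITF bind the promoters of many of these genes at a palindromic DNA element known as CLEAR, whose core is the E-box CACGTG. In breast cancer, lysosomal proteases such as cathepsins B, D and L have been studied for their part in invasion.

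Library totals ran from 34774542 to 42786422 counts. DMSO 2 stood apart in its share of mitochondrially encoded transcripts, 21.7% of counts against 8.68% to 10.3% in the other libraries. Markers of the line (VIM, CD44, KRT8, KRT18, AXL and PLAU) were present in every library, and ESR1, PGR and CDH1 were at or below 1.73 CPM (counts scaled by library size) in each. ERBB2, at 56.3 to 71.5 CPM, and EPCAM, at 5.49 to 9.34 CPM, were not absent. Levels below are CPM scaled with edgeR's trimmed mean of M-values (TMM), and they are compared only within a gene because transcript length is not corrected. In bulk RNA a gene that is on in fewer cells and one with less RNA per cell cannot be told apart.

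Lysosomal transcripts were higher in RB-BC for part of the set, which was chosen with earlier results of these data known. Hydrolases made up 21 of the 50 genes and 9 of the 14 that rose. By edgeR's quasi-likelihood test with Benjamini-Hochberg (BH) adjustment over all tested genes and a threshold of 0.05, 14 of the 50 genes rose and 1, MITF, fell, against backgrounds of 8.58% of all tested genes higher and 7.53% lower. Among hydrolases 9 of 21 rose (42.9%), among membrane proteins 2 of 8 (25%) and of the luminal lipid-binding proteins 1 of 2. Among V-ATPase subunits 2 of 16 rose (12.5%), near the share of all tested genes. Median log2 fold changes (RB-BC over DMSO) were 0.54 for hydrolases, 0.42 for membrane proteins and 0.10 for the V-ATPase, beside 0.42 for all 50 and 0.00 for all tested genes. Both RB-BC libraries lay above both DMSO libraries for 28 of the 50 genes (background 33.1% of tested genes) and below them for 5 (background 32.1%), and the groups overlapped for 17. Log2 fold changes were above 0 for 37 of the 50, beside 49.9% of tested genes. The difference between the classes was not tested, since genes of a class are not replicates. Among the other lysosomal genes listed below the order was reversed. There 15.2% of a list of mostly luminal hydrolases rose, and 22.2% of membrane proteins and transporters.

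Few of these calls passed when an RB-BC library was left out. Without RB-BC 1 only 2 members, NAGLU and ATP6V0D2, passed. Without RB-BC 2 there were 5, namely GAA, TPP1, CTSF, CTSS and ATP6V0D2. In these fits the DMSO pair alone sets the spread. The log2 fold change itself could stay close, as for CTSB, at 0.82 with all libraries, 0.85 without RB-BC 1 and 0.79 without RB-BC 2. The number that rose was 16 without DMSO 1 and 20 without DMSO 2, and DESeq2 called 22 higher and 2 lower. None of the 15 called genes changed sign in any of these fits. The number of all genes called also changed when a library was left out, as given below. For DESeq2 that number is not given. Changes in the member counts between fits can therefore not be read as a trait of lysosomal genes.

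**Figure D1:**
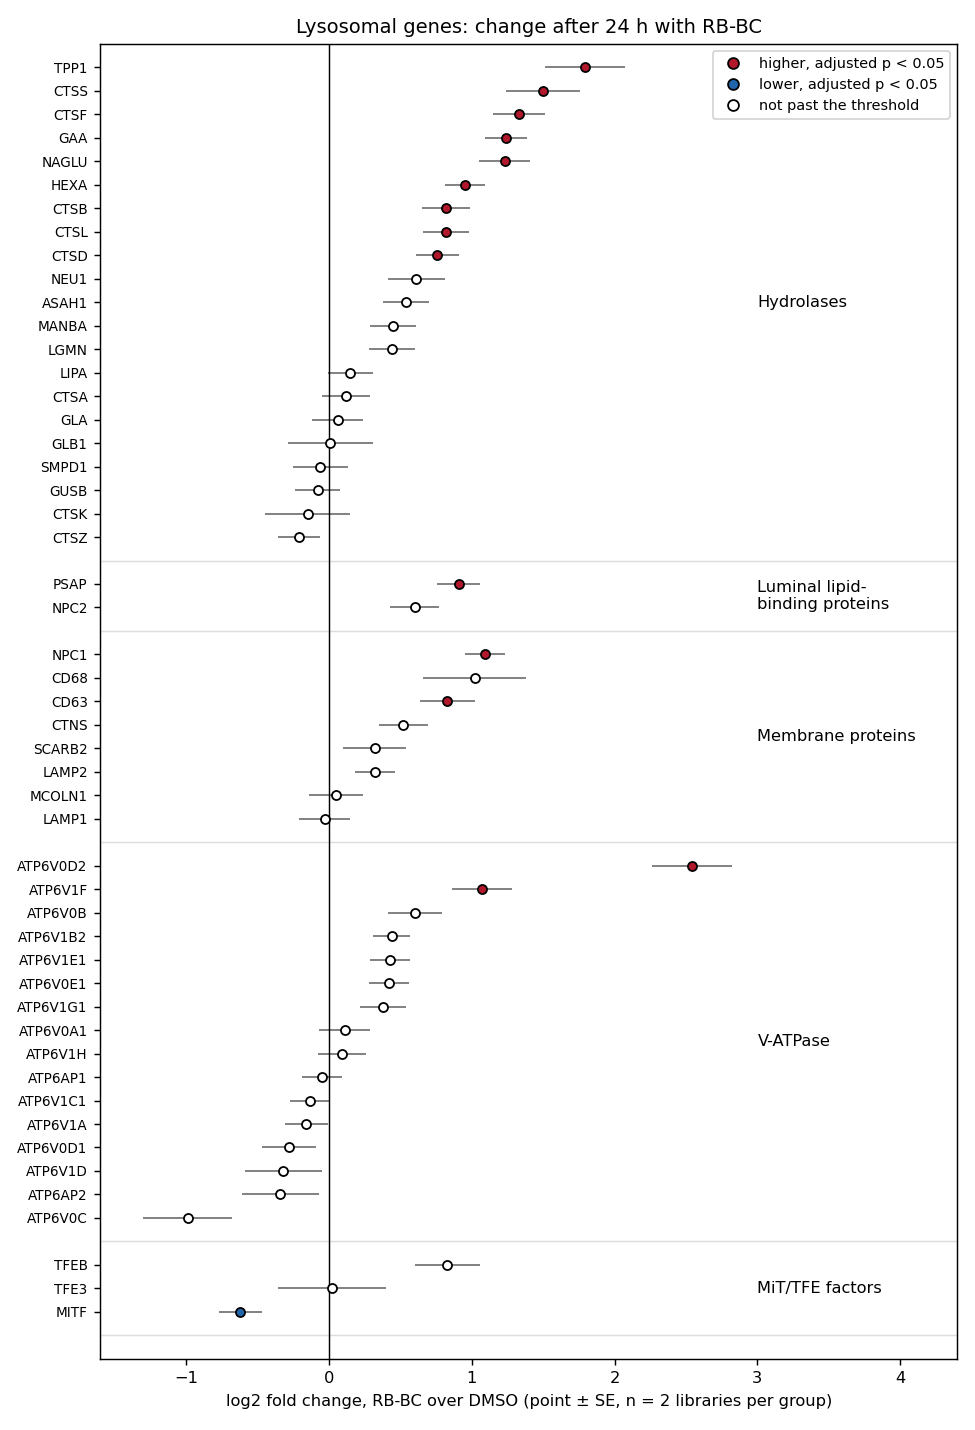
Log2 fold change of RB-BC over DMSO for each of the 50 lysosomal genes (x axis, point ± SE from edgeR, 2 libraries per group), grouped by class on the y axis. Red points rose, the blue point fell and open points did not pass; hydrolases hold 9 of the 14 red points, while the V-ATPase spreads from −0.99 for ATP6V0C to 2.54 for ATP6V0D2.

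The CPM of each class were also summed over its genes. Hydrolases together took 1744 and 1996 CPM in DMSO 1 and DMSO 2 and 2811 and 2736 CPM in RB-BC 1 and RB-BC 2, a ratio of group means of 1.48. Membrane proteins took 937 and 1205 CPM against 1704 and 1664 CPM, a ratio of 1.57. Most of that difference lay in CD68, NPC1 and CD63. Their DMSO means were 240, 185 and 135 CPM, and their RB-BC means 487, 395 and 241 CPM, and CD68 did not pass the test. For both classes the RB-BC libraries were above the DMSO libraries. The V-ATPase sums were 996 and 1162 CPM in DMSO and 1208 and 1160 CPM in RB-BC, so that RB-BC 2 lay just below DMSO 2 and the groups overlapped. These sums are descriptions without a test, and genes with many reads, whether abundant or long, weigh most in them.

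**Figure D2:**
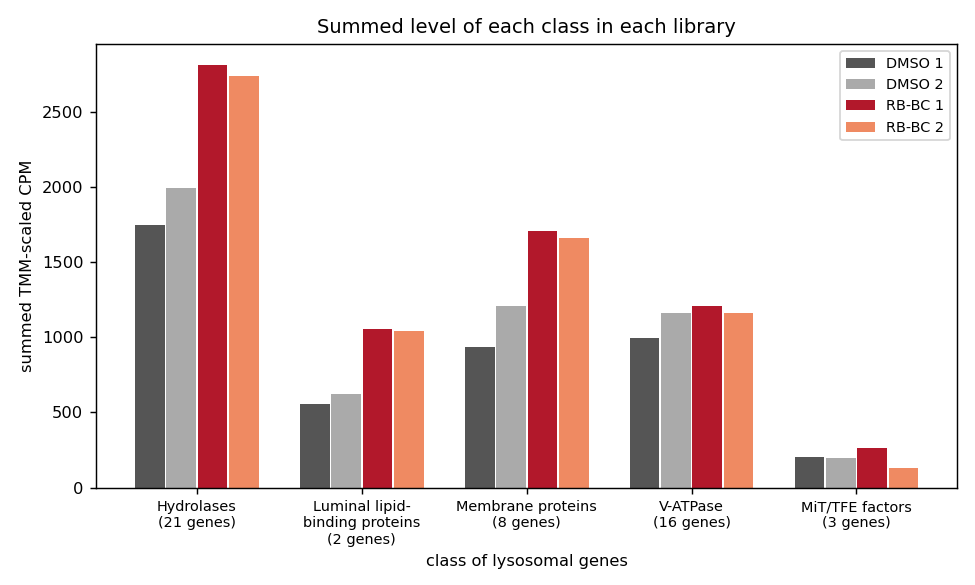
Summed TMM-scaled CPM (y axis) of the genes of each class (x axis) in each of the 4 libraries, drawn as bars from 0. Hydrolases and membrane proteins are higher in both RB-BC libraries, whereas the V-ATPase bars of DMSO 2 (1162) and RB-BC 2 (1160) are level.

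The promoters of these genes were searched for the CLEAR element because the factors that bind it are part of the set. RefSeq's table (GRCh38.p14) holds a window from 250 bases before to 50 after the transcription start for 34 of the 50 genes. The E-box CACGTG occurred in 11 of the 34 (32.4%), against 8.77% of all 27305 genes with a window, and the longer TCACGTGA, which contains it, in 6 (17.6% against 1.18%). Each of these motifs reads the same on both strands. The 27305 genes are all those with a RefSeq window, whether or not they were tested here. All members were tested, so the sets are unlike. The element is known from the promoters of many lysosomal genes, so a higher share was set in advance and says nothing of RB-BC. A gene counted if any of its windows held the motif, and 8 of the 34 have several. By window, CACGTG was in 21.6% of 51 member windows and 7.26% of all, and TCACGTGA in 11.8% and 0.98%. Among genes that rose, 8 had a window, of which 4 (GAA, CTSD, CTSF and CD63) held CACGTG and 1 (GAA) held TCACGTGA. Among those that did not rise, 26 had a window, of which 7 held CACGTG and 5 held TCACGTGA. A match is a description of letters, not evidence of binding. The sites below were chosen to set genes that rose beside genes that did not. Every site of the genes that rose is printed, but of the genes that did not, a single TCACGTGA site for each gene shown. LAMP1, MCOLN1 and CTSA held further sites that are not printed, and ATP6V0B and NEU1, which are not shown, held CACGTG. Capitals mark the motif, and bases run 5′ to 3′ on the gene's strand. Coordinates are RefSeq's on GRCh38.p14, not those of the deposited table, which has none.

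GAA (rose, chr17:80101494-80101521, plus strand): ggaggccgcgTCACGTGAcccaccgcgg
GAA (rose, chr17:80101539-80101566, plus strand): ctcccgccggTCACGTGAcccgcctctg
CTSD (rose, chr11:1763959-1763984, minus strand): cggccgcgccCACGTGaccggtccgg
CTSF (rose, chr11:66568714-66568739, minus strand): atataacaagCACGTGatagaggtca
CTSF (rose, chr11:66568642-66568667, minus strand): ctgcgcgcccCACGTGcctcctgtaa
CD63 (rose, chr12:55729174-55729199, minus strand): gggtaggggcCACGTGgccctggccg
LAMP1 (did not pass, chr13:113297200-113297227, plus strand): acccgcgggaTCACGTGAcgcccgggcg
MCOLN1 (did not pass, chr19:7522572-7522599, plus strand): ccagaggcggTCACGTGAggggctctgg
CTSA (did not pass, chr20:45891299-45891326, plus strand): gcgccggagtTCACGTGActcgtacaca
ATP6V0D1 (did not pass, chr16:67481200-67481227, minus strand): ccccttatggTCACGTGAggcgcttgcg
ATP6V1G1 (did not pass, chr9:114587700-114587727, plus strand): cgctgtgcggTCACGTGAcaacgggggc

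Of the peptidases 6 of 10 rose (60%, beside 8.58% of all tested genes), the highest share among the kinds of hydrolase. Differences between these kinds were not tested. TPP1 (ENSG00000166340), the tripeptidyl peptidase that trims peptides from their amino end, was at 124 and 69.6 CPM in DMSO 1 and DMSO 2 and at 324 and 346 CPM in RB-BC 1 and RB-BC 2. Both RB-BC values were well above both DMSO values, while the DMSO libraries themselves lay far apart. Its log2 fold change was 1.79 ± 0.28 (SE), the largest among hydrolases (edgeR BH-adjusted p = 0.0160), and it was 2.27 when DMSO 1 was left out and 1.44 when DMSO 2 was. Leaving out RB-BC 1 gave 1.84, which did not pass (edgeR BH-adjusted p = 0.0542).

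CTSS (ENSG00000163131), cathepsin S, a cysteine protease best known from antigen-presenting cells, was low throughout, at 2.42 and 2.36 CPM in DMSO and 7.84 and 5.70 CPM in RB-BC. The 2.39 ± 0.0423 CPM of DMSO became 6.77 ± 1.51 CPM (SD, n = 2), a rise of 2.83-fold with an SE of 0.26 on the log2 scale (edgeR BH-adjusted p = 0.0195, and 0.150 without RB-BC 1). CTSF (ENSG00000174080), cathepsin F, another cysteine protease, was at 7.01 and 8.06 CPM in DMSO and 19.7 and 18.1 CPM in RB-BC (1.33 ± 0.18, edgeR BH-adjusted p = 0.0114, and 0.0827 without RB-BC 1). For both genes the groups did not overlap. Markers of leukocytes and macrophages (PTPRC, CD14, CSF1R, ITGAM, CD163 and AIF1) summed to 1.58 to 1.97 CPM in DMSO and 2.05 to 2.71 CPM in RB-BC, none of the 3 that could be tested passed, and AIF1 had no count in any library; their part in the rise of CTSS was not tested.

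Cathepsins B, L and D rose by similar amounts. CTSB (ENSG00000164733), the cysteine protease cathepsin B, was at 196 and 247 CPM in DMSO and 383 and 399 CPM in RB-BC (0.82 ± 0.17, edgeR BH-adjusted p = 0.0294). CTSL (ENSG00000135047), cathepsin L, was at 119 and 147 CPM in DMSO and 239 and 231 CPM in RB-BC (0.82 ± 0.16, edgeR BH-adjusted p = 0.0262). CTSD (ENSG00000117984), the aspartic protease cathepsin D, was at 255 and 280 CPM in DMSO and 477 and 428 CPM in RB-BC (0.76 ± 0.15, edgeR BH-adjusted p = 0.0269).

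For each of these 3 the RB-BC libraries stood above both DMSO libraries. None passed without RB-BC 1 (edgeR BH-adjusted p = 0.177, 0.182 and 0.243 for CTSB, CTSL and CTSD) or without RB-BC 2 (0.166, 0.129 and 0.135). CTSL has 5 named pseudogenes in GENCODE release 29. CTSD shares 1304 exon bases with a read-through gene on the same strand (ENSG00000250644; 580 and 656 counts in DMSO, 1704 and 1611 in RB-BC). Other members are placed likewise. TPP1, NAGLU and CD68 share 756, 379 and 1789 exon bases with same-strand transcripts that the deposited counts do not list. GUSB, ATP6V1G1 and ATP6V0E1 have 11, 5 and 4 named pseudogenes. How reads were divided among such copies is not stated. On the opposite strand ATP6V1D shares 269 exon bases with EIF2S1 and LIPA 65 with IFIT2. ATP6V0D2 shares 502 with an antisense transcript that the counts do not list. The strand setting is not stated either.

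The other peptidases did not pass. CTSA, the serine carboxypeptidase that also stabilises beta-galactosidase and neuraminidase, was at 216 and 281 CPM in DMSO and 275 and 266 CPM in RB-BC (0.12 ± 0.17, edgeR BH-adjusted p = 0.645). CTSZ, cathepsin Z, was at 291 and 328 CPM in DMSO and 279 and 256 CPM in RB-BC (−0.21 ± 0.15). The RB-BC libraries of CTSZ lay below both DMSO libraries, the only hydrolase with that order. CTSK, the cathepsin of bone-resorbing cells, was at 2.36 to 3.53 CPM in the 4 libraries (−0.15 ± 0.30), and LGMN, the asparaginyl endopeptidase that matures other cathepsins, had a log2 fold change of 0.44 ± 0.16 (edgeR BH-adjusted p = 0.107) and passed without DMSO 2 (0.60, edgeR BH-adjusted p = 0.0262).

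Glycosidases, which remove sugars from glycans and glycolipids, split into 3 that rose (37.5%, beside 8.58% of all tested genes) and 5 that did not pass. GAA (ENSG00000171298), the acid glucosidase that degrades glycogen and is deficient in Pompe disease, was at 42.4 and 49.0 CPM in DMSO and 109 and 107 CPM in RB-BC. It rose by 1.24 ± 0.15 on the log2 scale, 2.36-fold (edgeR BH-adjusted p = 0.00942), and not past the threshold without RB-BC 1 (1.23, edgeR BH-adjusted p = 0.0657). Its promoter held both of the GAA sites printed above.

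NAGLU (ENSG00000108784), which degrades heparan sulfate, was at 15.4 and 16.8 CPM in DMSO and 33.6 and 42.0 CPM in RB-BC (1.23 ± 0.18, edgeR BH-adjusted p = 0.0132, and 0.0615 without RB-BC 2). HEXA (ENSG00000213614), the alpha subunit of beta-hexosaminidase, was at 49.98 and 55.2 CPM in DMSO and 107 and 97.2 CPM in RB-BC (0.95 ± 0.14, edgeR BH-adjusted p = 0.0148, and 0.132 without RB-BC 1 and 0.0680 without RB-BC 2). Neither gene's groups overlapped. HEXA overlaps a read-through gene of at most 31 counts per library and antisense transcripts.

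GLA (alpha-galactosidase, the Fabry disease enzyme) was at 17.1 and 13.8 CPM in DMSO and 16.0 and 16.2 CPM in RB-BC, with log2 fold change 0.06 ± 0.18. GUSB (beta-glucuronidase, often used as a reference gene) was at −0.08 ± 0.16, and GLB1 (beta-galactosidase, the enzyme behind the senescence-associated staining) at 0.01 ± 0.30. The groups overlapped for all 3. GLB1 ranged from 68.1 CPM in DMSO 1 to 129 CPM in DMSO 2, and its log2 fold change was −0.38 without DMSO 1 and 0.54 without DMSO 2. For NEU1, the sialidase (0.61 ± 0.20, edgeR BH-adjusted p = 0.0936), and MANBA, beta-mannosidase (0.45 ± 0.16, edgeR BH-adjusted p = 0.0994), RB-BC lay above DMSO in both libraries but neither passed.

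None of the 3 lipid hydrolases passed. ASAH1, acid ceramidase, was at 28.0 and 24.7 CPM in DMSO and 40.5 and 36.1 CPM in RB-BC (0.54 ± 0.16, edgeR BH-adjusted p = 0.0657), and passed without DMSO 1 (0.63, edgeR BH-adjusted p = 0.0413) and with DESeq2 (adjusted p = 0.0335). LIPA, acid lipase, was at 0.15 ± 0.16 and SMPD1, acid sphingomyelinase, at −0.06 ± 0.19.

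PSAP (ENSG00000197746) encodes prosaposin, the precursor of the saposins, which lift sphingolipids out of membranes for their hydrolases. It was at 408 and 434 CPM in DMSO and 782 and 803 CPM in RB-BC, and rose by 0.91 ± 0.15 (edgeR BH-adjusted p = 0.0170, and 0.145 and 0.124 without RB-BC 1 and RB-BC 2). NPC2, which hands cholesterol to NPC1, was at 150 and 185 CPM in DMSO and 271 and 237 CPM in RB-BC (0.60 ± 0.17, edgeR BH-adjusted p = 0.0627). NPC2 did not pass with all libraries, although its groups did not overlap, and it passed with DESeq2 (adjusted p = 0.0147) and without DMSO 2 (0.76, edgeR BH-adjusted p = 0.0211).

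**Figure D3:**
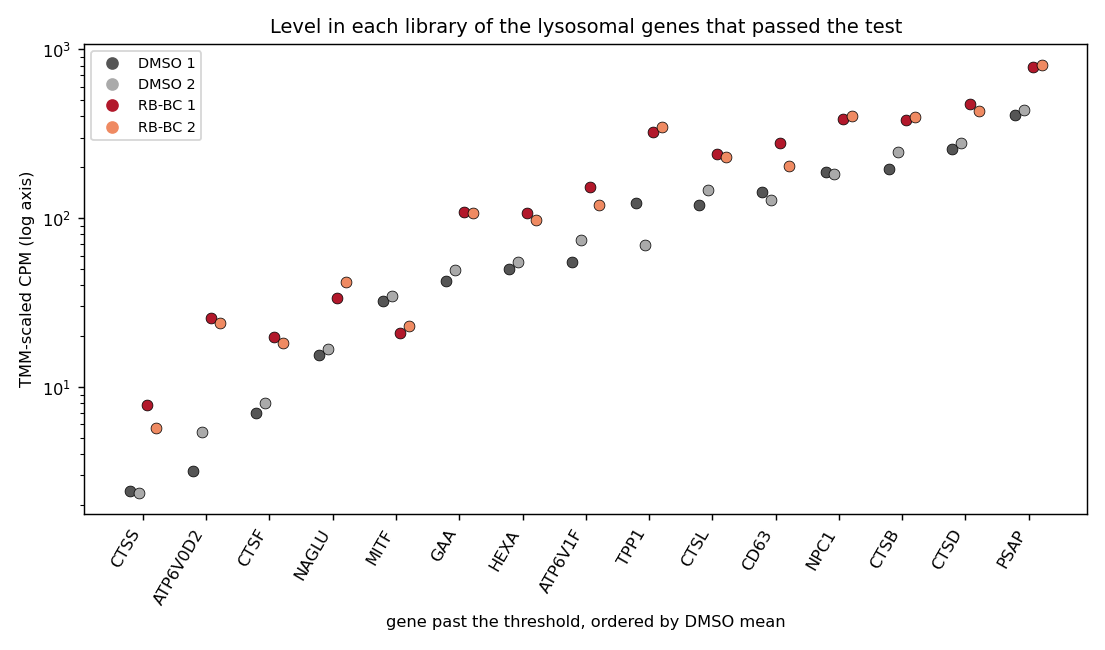
TMM-scaled CPM (y axis, log scale) in each of the 4 libraries for the 15 lysosomal genes past the threshold (x axis, ordered by DMSO mean). The 14 genes that rose have both RB-BC points above both DMSO points, MITF has them below, and TPP1 shows the widest gap between the DMSO libraries on this scale among the hydrolases (124 and 69.6 CPM).

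Of the membrane proteins NPC1 and CD63 rose. NPC1 (ENSG00000141458), which moves cholesterol out of the lysosome and is mutated in Niemann-Pick type C disease, was at 189 and 182 CPM in DMSO and 386 and 404 CPM in RB-BC. Replicates agreed closely, at 185 ± 4.499 and 395 ± 13.0 CPM (SD, n = 2), and the log2 fold change was 1.09 ± 0.14, 2.13-fold (edgeR BH-adjusted p = 0.0112). The NPC1 call ended without RB-BC 1 (edgeR BH-adjusted p = 0.0873) or RB-BC 2 (edgeR BH-adjusted p = 0.0707). It shares 604 exon bases with RMC1 on the opposite strand, which had 907 to 1277 counts per library.

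CD63 (ENSG00000135404), a tetraspanin of late endosomes and exosomes, was at 143 and 128 CPM in DMSO and 278 and 204 CPM in RB-BC (0.83 ± 0.19, edgeR BH-adjusted p = 0.0389). The rise was larger in RB-BC 1 than in RB-BC 2. Of the 14 rises CD63 was lost under the most alternatives: with plain library totals (edgeR BH-adjusted p = 0.0641) and without DMSO 2 (0.75, edgeR BH-adjusted p = 0.0568), RB-BC 1 (0.59, edgeR BH-adjusted p = 0.292) or RB-BC 2 (1.04, edgeR BH-adjusted p = 0.0724).

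The structural membrane proteins of the lysosome did not pass. LAMP1, with LAMP2 the main glycoprotein of the limiting membrane, was at 239 and 310 CPM in DMSO and 263 and 274 CPM in RB-BC (−0.03 ± 0.18, edgeR BH-adjusted p = 0.909). LAMP2 was at 104 and 102 CPM in DMSO and 122 and 134 CPM in RB-BC (0.32 ± 0.14, edgeR BH-adjusted p = 0.162). For LAMP1 the RB-BC values fell between the DMSO values, and for LAMP2 they were above both.

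CD68, a LAMP family protein used as a macrophage marker in tissues, was at 148 and 332 CPM in DMSO and 471 and 502 CPM in RB-BC (1.02 ± 0.36, edgeR BH-adjusted p = 0.107). DMSO 2 was thus nearer to RB-BC than to DMSO 1, and the log2 fold change was 0.55 without DMSO 1 (edgeR BH-adjusted p = 0.0347) and 1.72 without DMSO 2 (edgeR BH-adjusted p = 0.00650). The leukocyte and macrophage markers given above summed to at most 2.71 CPM in any library. CTNS, the cystine exporter, was at 0.52 ± 0.17 (edgeR BH-adjusted p = 0.0909; 0.70 and 0.0265 without DMSO 2), SCARB2, which carries glucocerebrosidase to the lysosome, at 0.32 ± 0.22 and MCOLN1, the calcium channel TRPML1, at 0.05 ± 0.19.

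In the proton pump 2 of 16 subunits rose (12.5%, near the 8.58% of all tested genes) and the rest did not pass. ATP6V0D2 (ENSG00000147614), the d2 isoform of the V0 stalk subunit and best known from osteoclasts, was at 3.16 and 5.40 CPM in DMSO (119 and 181 counts) and 25.6 and 24.1 CPM in RB-BC (1111 and 1055 counts). It rose by 2.54 ± 0.28 on the log2 scale, 5.81-fold, the largest change of the 50 (edgeR BH-adjusted p = 0.00865). It passed under every alternative, with 2.20 to 2.97 when a library was left out. The osteoclast markers ACP5, CALCR and OSCAR summed to 0.930 to 1.43 CPM in DMSO and 1.45 to 2.14 CPM in RB-BC, and neither of the 2 that could be tested passed; their part in the rise was not tested.

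The widely expressed isoform of the same subunit, ATP6V0D1, was at 66.1 and 92.8 CPM in DMSO and 63.6 and 67.2 CPM in RB-BC (−0.28 ± 0.19, edgeR BH-adjusted p = 0.342; −0.50 and 0.0397 without DMSO 1). The isoforms thus differed in their change. The log2 ratio of d2 to d1 counts was −4.39 and −4.10 in DMSO and −1.31 and −1.48 in RB-BC, a difference of 2.85. Because length is not corrected only the difference can be read, and an exact permutation test of 2 against 2 libraries gives two-sided p = 0.333, the smallest it can give.

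ATP6V1F (ENSG00000128524), the small F subunit of the V1 central stalk, was at 54.8 and 74.6 CPM in DMSO and 152 and 119 CPM in RB-BC (1.07 ± 0.21, edgeR BH-adjusted p = 0.0269, and 0.167 and 0.0529 without RB-BC 1 and RB-BC 2). Both RB-BC libraries were above DMSO. Its exons share 187 bases with KCP on the opposite strand, which had at most 58 counts per library. ATP6V0C, the proteolipid of the rotating ring, went the other way, at 99.1 and 195 CPM in DMSO and 73.8 and 74.3 CPM in RB-BC (−0.99 ± 0.31, edgeR BH-adjusted p = 0.0803), and did not pass.

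The value of ATP6V0C depended on the DMSO library: −1.40 without DMSO 1 (edgeR BH-adjusted p = 0.00841), −0.42 without DMSO 2 (edgeR BH-adjusted p = 0.0519), and it passed with DESeq2 (adjusted p = 0.0120). It has 4 named pseudogenes in GENCODE release 29, and how their reads were counted is not known. ATP6V1A, the catalytic A subunit, was at 42.7 and 39.4 CPM in DMSO and 34.3 and 39.4 CPM in RB-BC (−0.16 ± 0.15), level with DMSO 2 in RB-BC 2. The nucleotide-binding partner ATP6V1B2 was at 0.44 ± 0.13 (edgeR BH-adjusted p = 0.0704), and passed without DMSO 2 and with DESeq2 (adjusted p = 0.0476 and 0.0338).

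The remaining pump genes stayed between −0.34 and 0.60. ATP6V0B, another ring subunit, was at 0.60 ± 0.19 (edgeR BH-adjusted p = 0.0791), ATP6V1E1, of the peripheral stalk, at 0.43 ± 0.14, ATP6V0E1 at 0.42 ± 0.14 and ATP6V1G1, also of the peripheral stalk, at 0.38 ± 0.16. For these 4 both RB-BC libraries lay above both DMSO libraries, and none passed edgeR's test with all libraries. DESeq2 called ATP6V0B and ATP6V0E1 higher (adjusted p = 0.0483 and 0.0441), and edgeR called ATP6V1E1 and ATP6V1G1 higher when DMSO 2 was left out (BH-adjusted p = 0.0416 and 0.0357). ATP6V0A1, which anchors the V1 sector to V0, was at 0.11 ± 0.18, the regulatory subunit ATP6V1H at 0.09 ± 0.17 and ATP6V1C1 at −0.13 ± 0.14. ATP6V1D (−0.32 ± 0.27) and the accessory proteins ATP6AP1 (−0.05 ± 0.14) and ATP6AP2, the prorenin receptor (−0.34 ± 0.27), had overlapping groups. Without DMSO 2 ATP6V1D was lower (−0.67, edgeR BH-adjusted p = 0.0204), as was ATP6AP2 without DMSO 1 (−0.66, edgeR BH-adjusted p = 0.0428).

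**Figure D4:**
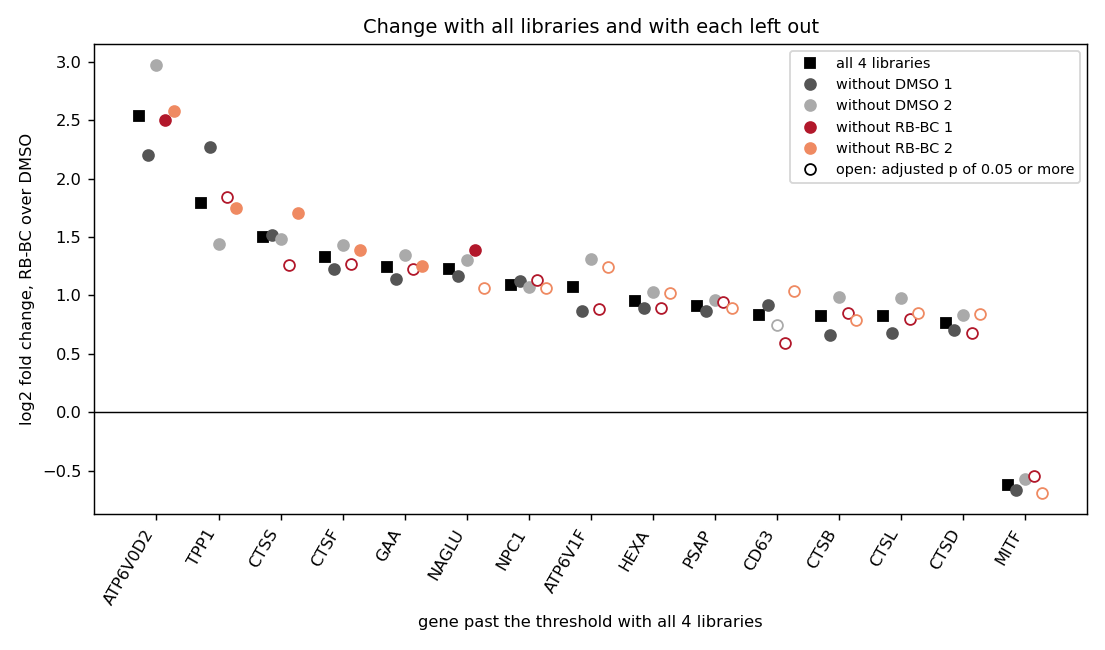
Log2 fold change of RB-BC over DMSO (y axis) for the 15 called lysosomal genes (x axis), with all 4 libraries (squares) and with each library left out (circles); filled symbols have an edgeR BH-adjusted p under 0.05 and open symbols do not. Signs are the same throughout, ATP6V0D2 is filled in every fit, and most circles without RB-BC 1 or RB-BC 2 are open.

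The transcription factors moved in different directions. MITF (ENSG00000187098), known from melanocytes and osteoclasts, was at 32.4 and 34.7 CPM in DMSO and 20.7 and 22.9 CPM in RB-BC, and fell by 0.62 on the log2 scale (SE 0.15, edgeR BH-adjusted p = 0.0428). Scaling by library totals ended the call (−0.57, edgeR BH-adjusted p = 0.130) as did leaving out RB-BC 1 or RB-BC 2 (edgeR BH-adjusted p = 0.333 and 0.194). TFEB, which drives lysosome biogenesis when it is dephosphorylated and enters the nucleus, was low, at 2.87 and 2.71 CPM in DMSO and 4.96 and 4.97 CPM in RB-BC (0.83 ± 0.23, edgeR BH-adjusted p = 0.0578), and its groups did not overlap. TFEB did not pass with edgeR, and DESeq2 called it higher at the edge of the threshold (adjusted p = 0.04997).

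TFE3 had 168 and 162 CPM in DMSO but 234 and 99.4 CPM in RB-BC 1 and RB-BC 2. The group means were close (0.02 ± 0.38, edgeR BH-adjusted p = 0.980), the RB-BC libraries lay on either side of DMSO, and the log2 fold change was −0.73 without RB-BC 1 and 0.51 without RB-BC 2. These are transcript levels; the activity of these factors is set largely by phosphorylation and localisation, which were not measured.

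Other genes of lysosome biology, 131 in 7 lists, were set beside the members. Of the 125 tested, 24 rose (19.2%, beside 8.58% of all tested genes) and 3 fell (beside 7.53%), with a median log2 fold change of 0.16. Without RB-BC 1 the edgeR count that rose was 0, without RB-BC 2 it was 6, and without DMSO 2 it was 39. The number of all genes called changed between those fits as well. Among 33 other genes, mostly luminal hydrolases, 5 rose (15.2%, beside 8.58% of all tested genes) and 1 fell (beside 7.53%). The acid nuclease DNASE2 (1.04 ± 0.14), the dipeptidyl peptidase DPP7 (1.09 ± 0.16) and the ganglioside activator GM2A (0.91 ± 0.15) rose. CTSH (0.88) and MAN2B1 (0.71), which are named to complete the count, also rose, and arylsulfatase B (ARSB) fell by 1.12. The ARSB call ended without RB-BC 1 or RB-BC 2 (edgeR BH-adjusted p = 0.0987 and 0.0709). The list's median was 0.06, beside 0.54 for the member hydrolases; the difference between the lists was not tested.

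Of 27 other membrane proteins and transporters 6 rose (22.2%, beside 8.58% of all tested genes) and 0 fell (beside 7.53%), with a median of 0.20. They were led by the histidine and peptide transporter SLC15A4 (1.16 ± 0.14) and the sialic acid exporter SLC17A5 (1.09 ± 0.14), followed by GPR137B (0.97 ± 0.17) and TMEM192 (0.77 ± 0.16). Of 17 other V-ATPase subunits and assembly factors 2 rose, RNASEK (0.98 ± 0.16) and NCOA7 (0.62 ± 0.15), with a median of 0.01. That is 11.8% of the list, near the 8.58% of all tested genes. NCOA7 did not pass with library totals (edgeR BH-adjusted p = 0.108) or the replicate block (0.0557), and neither gene passed without RB-BC 1 (0.145 for RNASEK and 0.310 for NCOA7) or RB-BC 2 (0.0620 and 0.186). The assembly chaperone VMA21 was at −0.56 ± 0.15 (edgeR BH-adjusted p = 0.0572). CCDC115, another assembly factor, was at 0.43 ± 0.15 and did not pass.

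Hydrolases reach the lysosome by a mannose 6-phosphate tag. Of 14 genes of tagging and sorting 2 rose (14.3%) and 1 fell, shares near those of all tested genes (8.58% and 7.53%). M6PR, the cation-dependent receptor of that tag, was at 73.2 and 86.8 CPM in DMSO and 40.8 and 43.6 CPM in RB-BC and fell by 0.92 (edgeR BH-adjusted p = 0.0178). The sorting receptor SORT1 was at −0.41 ± 0.19. GNPTG, a subunit of the enzyme that makes the tag, rose by 0.67 ± 0.16 and the adaptor subunit AP1S1 by 0.94 ± 0.19. The M6PR call ended when RB-BC 1 or RB-BC 2 was left out (edgeR BH-adjusted p = 0.165 and 0.0998). GNPTG and AP1S1 did not pass with library totals (edgeR BH-adjusted p = 0.0619 and 0.0625), without RB-BC 1 (0.272 and 0.177) or without RB-BC 2 (0.166 and 0.0780), and GNPTG did not with the replicate block (0.0515).

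TFEB and TFE3 are held in the cytosol by mTORC1, which the Rag GTPases and the Ragulator complex recruit to the lysosome. Of 18 tested genes of this control 4 rose (22.2%, beside 8.58% of all tested genes) and 1 fell (beside 7.53%). The Rag genes RRAGD (0.85 ± 0.14) and RRAGC (0.76 ± 0.14) and the Ragulator genes LAMTOR2 (0.99 ± 0.15) and LAMTOR4 (0.93 ± 0.17) rose, and MTOR itself, named to complete the count, fell by 0.73 (edgeR BH-adjusted p = 0.0250). None of these 5 passed without RB-BC 1 (edgeR BH-adjusted p from 0.122 to 0.251) or without RB-BC 2 (from 0.0583 to 0.154), and MTOR did not with library totals (0.0914). Of the cystatins, which inhibit cysteine cathepsins, 2 of 5 tested members rose (40%, beside 8.58% of all tested genes). CST4 went from 0.664 and 1.79 CPM to 12.0 and 8.49 CPM (3.07 ± 0.48). CST1 went from 1.59 and 4.74 CPM to 24.2 and 16.7 CPM (2.70 ± 0.51). Without DMSO 1 the log2 fold changes were 2.52 for CST4 and 2.11 for CST1, and without DMSO 2 they were 3.94 and 3.68. Both calls ended without RB-BC 1 (edgeR BH-adjusted p = 0.0573 and 0.0796). CST1 and CST4 are close paralogs whose reads can be shared, and the abundant inhibitors CSTB (0.65 ± 0.23) and CST3 (0.57 ± 0.20) did not pass.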

How the data were processed

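The authors deposited whole-number read counts per human Ensembl gene, 1 column per library, with no normalization that the values show. No source used here names the aligner, counter, strand setting or annotation; the builds listed, per the submitters' processing notes, are GRCm38 and mm10, mouse assemblies, while all 20263 identifiers are human. Groups and replicate numbers come from the sample titles. After filterByExpr (count of 10, total of 15) libraries were scaled by TMM and tested with the quasi-likelihood test of edgeR 4.0.16 in R 4.3.3 on all 4 libraries, calling genes at a Benjamini-Hochberg adjusted two-sided p under 0.05; SE is the log2 fold change over the square root of F. DESeq2 1.42.0, limma-voom (limma 3.58.1), other scalings and filters, the replicate number as a block and leaving out each library were alternatives. The members and lists were chosen with earlier results of these data known. All members could be named; of each list the 4 genes with the smallest adjusted p were named, and others where stated. Promoter windows come from RefSeq. Reads carry no molecular identifiers. Depth ran from 34774542 to 42786422 counts.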

Additional observations from a re-analysis of the deposited data

How the results depend on the processing

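Scaled by library totals, 1205 genes passed against 2214, 0 members were lower and 1 membrane protein was higher (CD63 and MITF were lost); LAMP1 was at 0.04, SMPD1 at 0.01 and ATP6AP1 at 0.00. DESeq2 called 22 members higher, 2 lower and 5 V-ATPase genes higher. With limma-voom TFE3 was at −0.11. The replicate numbers did not pair the libraries (the correlation of deviations of same-numbered libraries was −0.034, and the labels name no shared batch). With the replicate block 2114 genes were called, with 15 members higher and 1 lower; CD68 (1.13) and ATP6V0C (−0.91) passed, MITF did not, and TFE3 was at −0.11. Size factors (RLE), testing without a filter, a minimum mean of 50 counts, limma-voom and removal of mitochondrially encoded genes each left 14 members higher and 1 lower.

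Leaving out each library gave 205 to 3648 genes called, 2 to 20 members higher and 0 to 4 lower. Hydrolases called higher ranged from 1 to 10, membrane proteins from 0 to 3 and V-ATPase genes from 1 to 5, and the V-ATPase median from 0.06 to 0.27. The other lysosomal genes had 0 to 39 higher and 0 to 12 lower. The lowest counts came without RB-BC 1 and the highest of the rises without DMSO 2. Uncalled members whose sign changed ranged from −0.21 to 0.17 for LAMP1, −0.15 to 0.27 for MCOLN1, −0.09 to 0.22 for GLA, −0.38 to 0.54 for GLB1, −0.22 to 0.08 for GUSB, 0.00 to 0.31 for LIPA, −0.25 to 0.17 for SMPD1, −0.05 to 0.33 for CTSA, −0.41 to 0.18 for CTSK, −0.73 to 0.51 for TFE3, −0.07 to 0.32 for ATP6V0A1, −0.67 to 0.14 for ATP6V1D, −0.02 to 0.22 for ATP6V1H, −0.15 to 0.05 for ATP6AP1 and −0.66 to 0.07 for ATP6AP2. The cause of these differences was not tested; a fit on 3 libraries takes its spread from the intact pair.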

Other observations

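A list drawn up for the response to damaged lysosomal membranes was the last of the 7 lists. It also holds genes with other roles, such as PLIN2, and whether lysosomes were damaged was not tested. Of 11 tested, 3 rose (27.3%, beside 8.58% of all tested genes) and 0 fell, with a median log2 fold change of 0.47. LGALS3, the galectin that binds glycans exposed in ruptured lysosomes, was at 55.1 and 56.9 CPM in DMSO and 115 and 109 CPM in RB-BC (1.00 ± 0.14, edgeR BH-adjusted p = 0.0119), and LGALS1, a related galectin, at 265 and 245 CPM and at 621 and 438 CPM (1.06 ± 0.21). PLIN2, the lipid droplet coat protein, rose by 1.28 ± 0.17. LGALS8, another galectin recruited to damaged vesicles, was at 271 and 139 CPM in DMSO and 269 and 257 CPM in RB-BC and did not pass (0.36 ± 0.31), and the membrane repair gene CHMP4B was at 0.62 ± 0.18 (edgeR BH-adjusted p = 0.0640). Both galectins that rose and PLIN2 failed without RB-BC 1, and LGALS3 failed without RB-BC 2 as well. For LGALS3, LGALS1 and PLIN2 the log2 fold changes were 0.96, 0.78 and 1.20 without RB-BC 1. Without RB-BC 2 they were 1.03, 1.29 and 1.36. LGALS8 is named for its role, after its values were seen.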
